A study of Mus musculus with 309 samples.

Results

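The 9 genes described here are the mouse MHC class II genes H2-Aa, H2-Ab1, H2-Eb1, H2-DMa, H2-DMb1, H2-Oa and H2-Ob, the invariant chain gene Cd74 and Ciita, taken by symbol from a table of 55291 genes. All 9 were found, and all 9 passed the filters on low counts in the fits reported below. They were measured by bulk sequencing of poly(A) RNA in 309 mammary tumours of 24 mouse models, which the series title places under triple-negative breast cancer. Untreated tumours numbered 64 (18 models); 65 tumours (22 models) had received trametinib, an inhibitor of the kinase MEK, and 66 (22 models) erlotinib, an inhibitor of the receptor EGFR. Another 66 tumours (22 models) had received carboplatin plus paclitaxel, and 48 (16 models) had received antibodies against PD1 and CTLA4, which release T cells from inhibitory signals. The labels name each model only by its code and give no strain, sex or age, no dose and no time under treatment, and no allele beyond what a code itself says. All 309 samples are labelled mammary tumour. Of the 100 groups of model and treatment, 92 held 3 tumours; E0771 had 1 untreated tumour.

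MHC class II molecules carry peptides from the endocytic pathway to the cell surface, where CD4 T cells read them. An alpha and a beta chain pair up with the invariant chain Cd74, which blocks the groove until it is degraded; DM, made of H2-DMa and H2-DMb1, then exchanges its last fragment for a peptide, and DO, made of H2-Oa and H2-Ob, restrains DM. Ciita is the coactivator that switches these genes on. It binds no DNA itself and docks on RFX, CREB and NF-Y factors sitting on the X and Y boxes of class II promoters. Dendritic cells, macrophages and B cells express class II constitutively, and interferon gamma can induce it in other cells, tumour cells among them. In whole tumours, more cells of a type and more RNA per cell cannot be told apart.

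The promoters of 5 members are shown because they hold the paired letters of the X and Y boxes. RefSeq promoters of 300 bases (250 before and 50 after the gene start, build GRCm38.p6, the same sequence as mm10) were at hand for 6 of the 9 members, in 7 windows. The pair searched for was GNAAC, part of the X box, followed after 15 to 35 bases by TGATTGG, the core of the Y box. Both were sought on the strand of the gene, and the 2 motifs cannot overlap at that distance. The pair was present in H2-Aa, H2-Eb1, H2-DMb1, H2-Oa and H2-Ob and in neither window of H2-DMa. Of the 32851 promoters in the table, 0.25% held it (0.569% when either strand was allowed). The capitals mark only the letters of these 2 motifs in each stretch, not whole boxes. The stretch of H2-Aa lies at chr17:34287859-34287912 on the minus strand. The others lie on the plus strand, at chr17:34305768-34305820 (H2-Eb1), chr17:34153089-34153142 (H2-DMb1), chr17:34092295-34092348 (H2-Oa) and chr17:34238810-34238860 (H2-Ob).
H2-Aa: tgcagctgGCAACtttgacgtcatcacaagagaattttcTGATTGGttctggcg
H2-Eb1: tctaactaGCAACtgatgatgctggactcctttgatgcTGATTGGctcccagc
H2-DMb1: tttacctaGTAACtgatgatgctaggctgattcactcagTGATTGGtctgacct
H2-Oa: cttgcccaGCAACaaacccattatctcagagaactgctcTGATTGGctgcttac
H2-Ob: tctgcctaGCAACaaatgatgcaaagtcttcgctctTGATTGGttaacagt

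The Y box core ended 38 (H2-Oa) to 56 (H2-DMb1) bases before the gene start of the RefSeq table; the mm10 gene annotation (GENCODE) places some starts elsewhere, so that of H2-DMb1 lies before the stretch shown. A match is a description of these letters only. H2-Aa, H2-Ab1, H2-Eb1, the DM and the DO genes lie together on chromosome 17; Ciita lies on chromosome 16 at chr16:10480059-10528418 (mm10, plus strand) and Cd74 on chromosome 18. Ciita overlaps Dexi on the opposite strand, H2-DMa overlaps Brd2, H2-Eb1 the antisense gene Gm20513 and H2-Oa the antisense gene BC051537, and strandedness is not given in the sources used here, so some reads of these members may belong to the neighbour. H2-DMb1 and H2-Eb1 have close copies, H2-DMb2 and H2-Eb2, so their values are uncertain to that extent.

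Levels are given as CPM, counts scaled to library size by TMM, and describe 1 gene across tumours, not 1 gene against another. Library totals ran from 12.1 M to 226 M estimated counts (median 78.6 M, M for mega); their medians were 39.3 M and 34.3 M with trametinib and erlotinib and 76.9 M, 103 M and 113 M in untreated, carboplatin plus paclitaxel and antibody tumours. H2-Aa had a median of 7671 counts per tumour and Ciita of 498, whereas H2-Oa had 35 and H2-Ob 51, so counting error matters for the DO genes. Leukocyte genes were found in every tumour: Ptprc (CD45) ran from 2.18 to 325 CPM and 10 macrophage markers summed to 99.1 to 6914 CPM. The 10 dendritic cell markers summed to 24.6 to 1254 CPM, but 1 of them, Fscn1, could make up most of that sum. In untreated K14-TRT Fscn1 had a mean of 770 CPM beside a median sum of 783 CPM. The highest untreated model mean of Itgax was 61.3 CPM. The sum need not follow leukocyte content: untreated KPB1-A had 346 to 400 CPM with Ptprc at 8.31 to 9.87 CPM. B cell markers were low (median sum 5.74 CPM, highest 127 CPM), with 5 of 8 at 0 in at least 1 untreated tumour. A few tumours stood apart in tissue content, foremost 1 MMTV-Neu tumour under erlotinib with a skeletal muscle sum of 11862 CPM beside a median of 76.7 CPM over all tumours. The 3 MMTV-Neu tumours under trametinib had sums of 1978, 249 and 178 CPM over 6 genes listed as lymphoid follicle or node markers (median 4.54 CPM), which include the milk gene Glycam1, and in the tumour with the highest sum the B cell markers, T cell markers and Ptprc were at 2.61, 5.25 and 21.4 CPM, below their medians over all tumours. Epithelial markers summed to a median of 2169 CPM but fell to 12.3 CPM in the lowest tumour.

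Untreated tumours of the models differed in every member. Among the 16 models with at least 3 untreated tumours (62 tumours), all 9 members were called by edgeR's quasi-likelihood F-test at a Benjamini-Hochberg adjusted p under 0.05 over all genes, with adjusted p between 1.12e-23 (H2-Eb1) and 1.05e-06 (H2-Oa). Of all genes tested, 98.1% were called, so a difference between models was the rule and not particular to these genes. KPB1-A and KPB1-B tumours stood low and K14-TRT, KPB25L and T11-APOBEC tumours high: KPB1-A was among the lowest 3 models for 8 members and KPB1-B for 7, and each of the other 3 was among the highest 3 for 7 members.

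H2-Aa, the alpha chain of the A molecule, had a mean of 37.6 ± 21.4 CPM (SD, n = 6) in KPB1-B, with tumours from 8.28 to 69.7 CPM and a median of 36.9 CPM. In K14-TRT, at the other end, it was 675 ± 424 CPM (SD, n = 9), from 143 to 1279 CPM with a median of 621 CPM. The ends of the order did not overlap, but its steps did: 14 of the 15 neighbouring pairs of models overlapped, the exception being T11 (64.1 to 404 CPM) and KPB25L-UV (437 to 521 CPM). H2-Ab1, the beta chain partner, ran from 41.6 ± 26.2 CPM in KPB1-B (SD, n = 6) to 998 ± 460 CPM in T11-APOBEC (SD, n = 3), with all 15 neighbouring pairs overlapping.

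**Figure D1:**
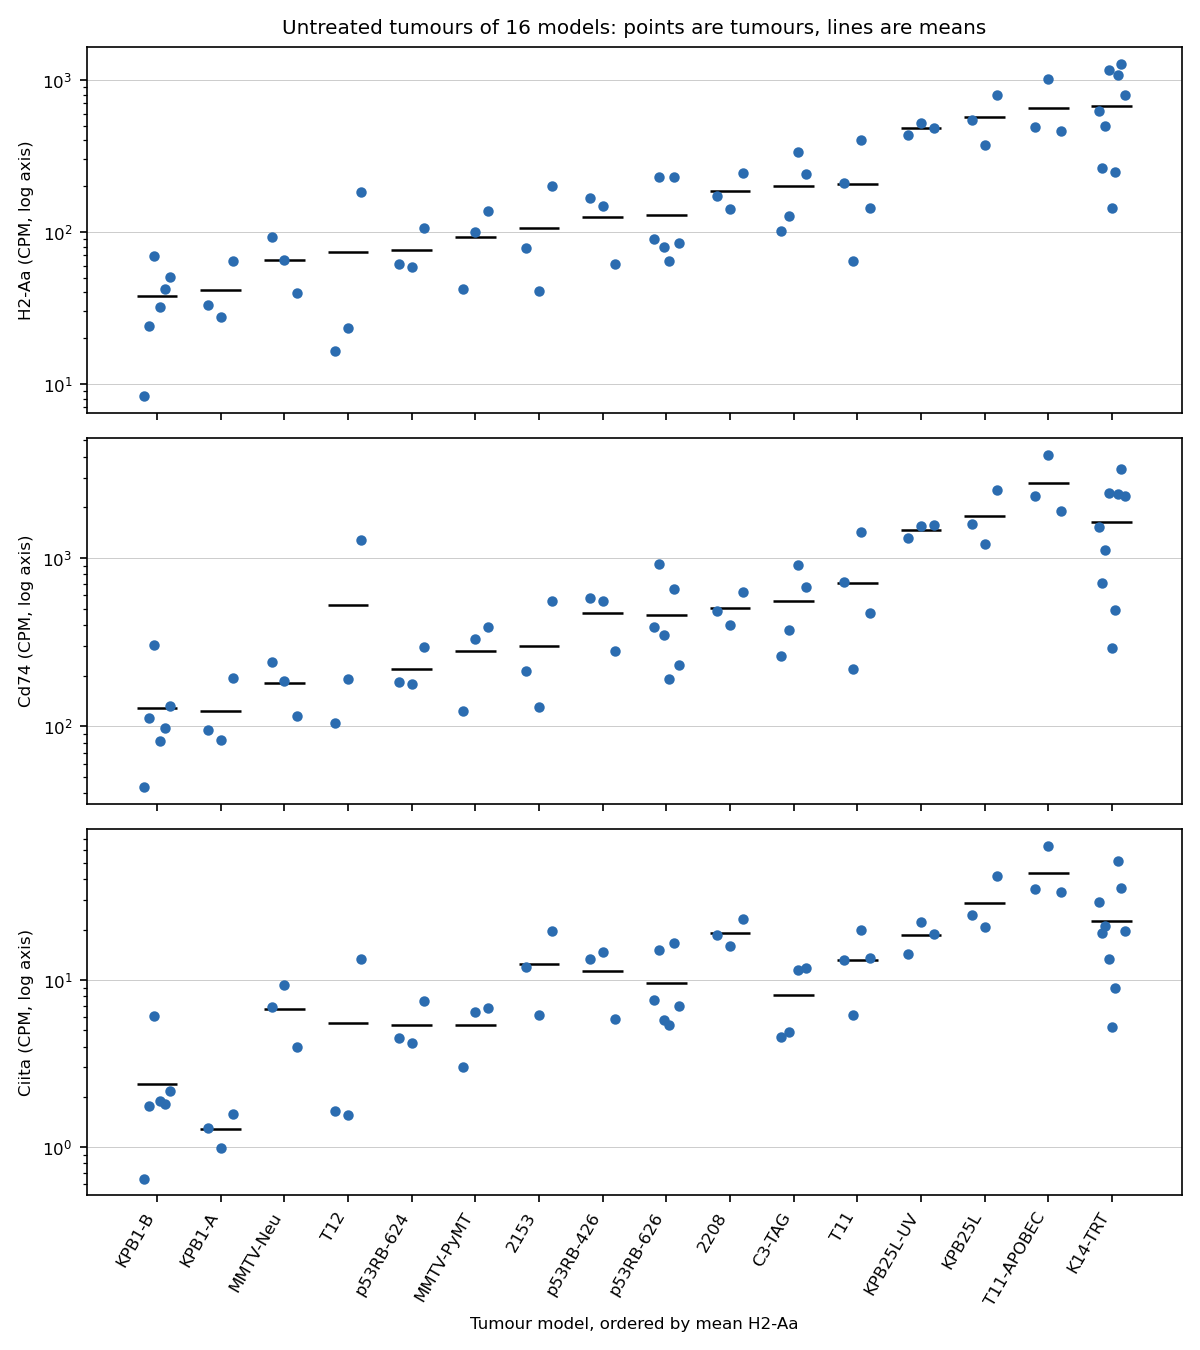
H2-Aa, Cd74 and Ciita in untreated tumours of 16 models, as CPM on log axes; points are tumours, lines are model means, and models are ordered by mean H2-Aa. KPB1-A and KPB1-B are lowest for all 3 genes, and neighbouring models mostly overlap.

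Cd74, the invariant chain, had a similar but not identical order: T12 was at rank 4 from below for H2-Aa and at rank 10 for Cd74. Its tumours had 94.6, 82.7 and 195 CPM in KPB1-A and reached 2779 ± 1166 CPM (SD, n = 3) in T11-APOBEC, 22.4 times the KPB1-A mean. Ciita, the coactivator, was at 1.31, 0.994 and 1.58 CPM in the 3 KPB1-A tumours and at 43.9 ± 16.7 CPM (SD, n = 3; 33.4 to 63.2 CPM) in T11-APOBEC, a 33.8-fold range of means. No pair of neighbours in the order of Ciita or Cd74 was separated. The single untreated E0771 tumour, outside this test, was high throughout, with H2-Aa at 985 CPM, Cd74 at 2773 CPM and Ciita at 37.9 CPM.

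The DM genes mostly ran along with the chains, with some exceptions. H2-DMa ranged from 7.79 ± 2.09 CPM in KPB1-A (SD, n = 3) to 126 ± 35.4 CPM in T11-APOBEC (SD, n = 3), and H2-DMb1 from 2.59 ± 0.219 to 82.7 ± 31.0 CPM in the same models. MMTV-Neu tumours had rank 3 of 16 from below for H2-Aa (92.7, 65.2 and 39.3 CPM) yet rank 14 for H2-DMb1 (31.9, 34.1 and 40.7 CPM). T12 had rank 4 for H2-Aa and rank 11 for H2-DMa, and 2153 had rank 7 for H2-Aa and rank 3 for H2-DMb1. The DO genes were ordered otherwise: the 2153 and 2208 models were lowest for both, with H2-Oa at 0.181 ± 0.101 CPM (SD, n = 3) in 2153 against 1.47 ± 0.648 CPM (SD, n = 9) in K14-TRT, and H2-Ob at 0.326 ± 0.208 CPM in 2153 against 5.36 ± 3.76 CPM in KPB25L (SD, n = 3 each). Both models lay in the middle of the order for H2-Aa.

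As a description over these 16 model means, the genes most like the average of H2-Aa, H2-Ab1, H2-Eb1 and Cd74 on the log2 scale, among 12706 genes, were Serpina3g and Fcgr4 (Pearson r 0.89 each), Cd72 (0.88), AW112010, Tnfsf13b, Tgtp2 and Ppfia4 (0.87 each), Slamf8 (0.86), Cd274 (0.85) and Ighm (0.85); the median over all genes was -0.04. Of the other members, Ciita had r 0.91, H2-DMa 0.89, H2-DMb1 0.74, H2-Ob 0.52 and H2-Oa 0.27 with that average. The genes closest to Ciita itself were Grap2 (0.85), H2-DMb2 (0.84), Ipcef1 and Klrk1 (0.83 each) and AW112010 (0.82). Within that average H2-Eb1 had the widest range of model means, 934-fold against 17.9 to 24.0-fold for H2-Aa, H2-Ab1 and Cd74. Its order is mostly the division of the E chains described below. Ciita had r 0.67 with H2-Eb1 and 0.88 to 0.91 with H2-Aa, H2-Ab1 and Cd74. Model means share depth and cell content, and no test was attached to these values.

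Within groups, too, the members moved together. In the 97 groups of at least 3 tumours, the tumour with the most H2-Aa was also the one with the most H2-Ab1 in 92.8% of groups, with the most H2-Eb1 and the most Cd74 in 90.7% each, and with the most H2-DMa in 78.4%, H2-DMb1 in 77.3%, Ciita in 68.0%, H2-Ob in 64.9% and H2-Oa in 59.8%. The median over the 26315 other genes was 33.0%. Other genes reached shares in the range of the DO genes: Cd3e (T cells) and Irf1 (an interferon response factor) had 66.0% each, above H2-Ob and H2-Oa, Itgax 58.8%, Ptprc and Csf1r 57.7% each and Cd79a, a B cell gene, 39.2%. Rfx5, the DNA-binding partner of Ciita, reached 28.9% and the epithelial gene Epcam 44.3%. The part of cell content in these shares was not tested.

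The E chains divided the models cleanly. H2-Eb1 pairs with H2-Ea to form the second class II molecule, E, and mouse strains differ in their H2 haplotype, some of which give no RNA from one or both E genes. Counts of each were set against H2-Aa in the same tumour, a ratio used only to compare tumours since it is not adjusted for length. In 11 models (T11, T11-APOBEC, T12, 4T1, 9263, 2336, 2250, 2225, 2224, 2208 and 2153; 135 tumours) H2-Eb1 counts were 55.8% to 110% of H2-Aa counts, with a median of 75.9%, and H2-Ea counts were 30.5% to 91.7%, with a median of 58.4%. In 12 models (KPB25L, KPB1-B, MMTV-Neu, p53RB-626, K14-TRT, KPB25L-UV, p53RB-426, MMTV-PyMT, C3-TAG, KPB1-A, p53RB-624 and KPB25L-APOBEC; 161 tumours) the same shares were 0.781% to 4.02% (median 1.51%) and 0.340% to 1.81% (median 0.775%). No tumour of one set reached the range of the other, under any treatment.

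E0771 followed neither pattern. Its 13 tumours had H2-Eb1 counts at 82.1% to 113% of H2-Aa, but 12 of them had 0 counts of H2-Ea and the other had 1, at H2-Aa levels of 88.7 to 2341 CPM. E0771 also stood apart in the DM pair: H2-DMb1 counts were 17.9 to 47.5 times those of H2-DMb2 (median 23.9), whereas the model medians elsewhere lay between 0.619 in T12 and 2.57 in the single KPB25L-APOBEC tumour. The labels give no strain, so the relation of these patterns to haplotype was not tested. For H2-Eb1 the untreated order above is therefore mostly this division: from 0.662 ± 0.227 CPM in KPB1-A (SD, n = 3) through 9.79 ± 5.56 CPM in K14-TRT (SD, n = 9), the highest of the low set, to 54.4 ± 70.4 CPM in T12 and 618 ± 307 CPM in T11-APOBEC (SD, n = 3 each).

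**Figure D2:**
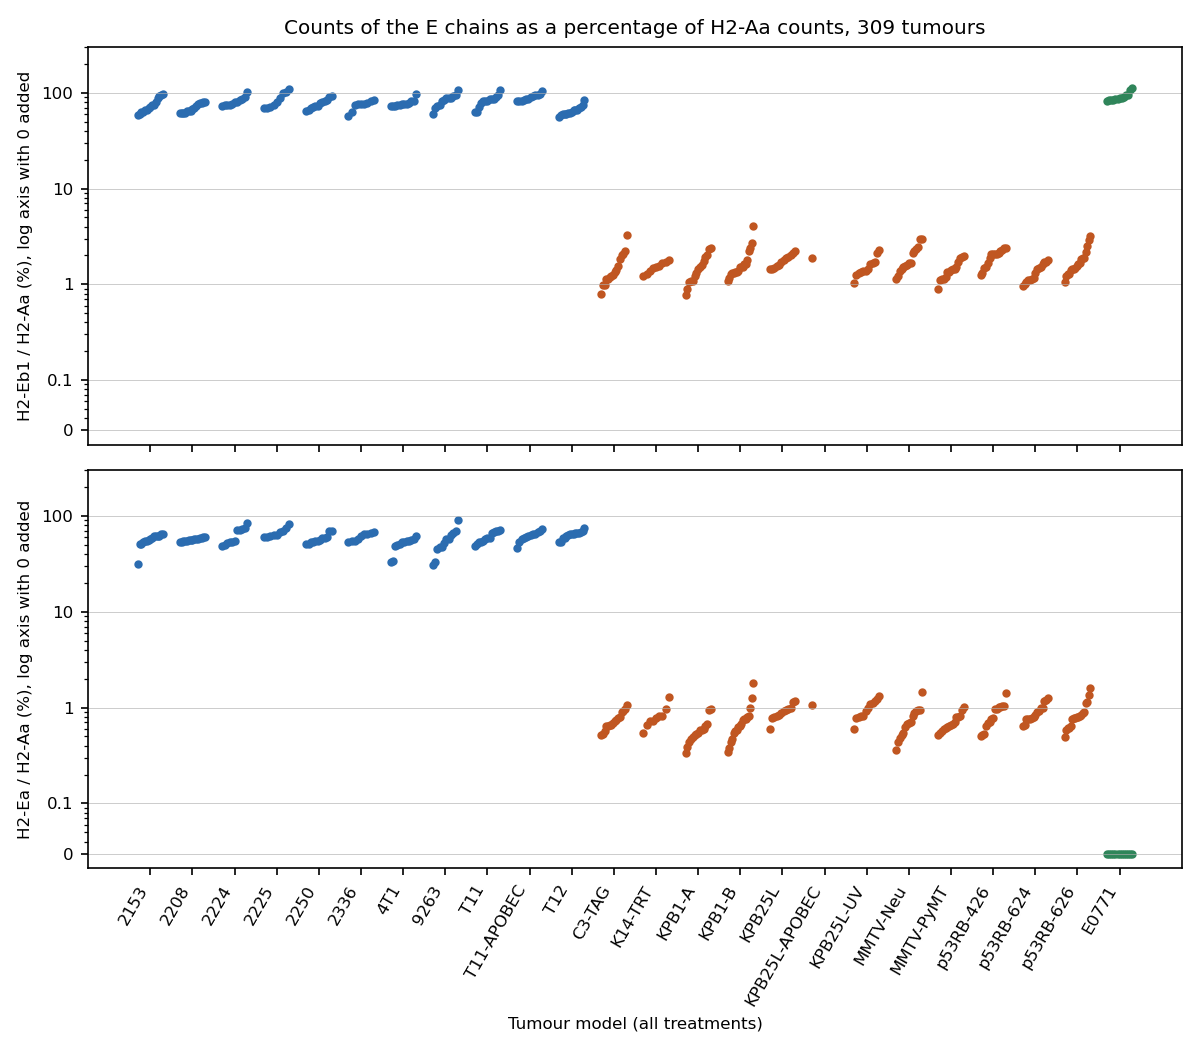
Counts of H2-Eb1 (top) and H2-Ea (bottom) as a percentage of H2-Aa counts in all 309 tumours, on log axes with 0 added; each point is 1 tumour, sorted within its model, and colours mark the 3 patterns. Blue models lie above 30%, orange models below 5%, and E0771 (green) has high H2-Eb1 with H2-Ea at 0.

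Pooled over models, no treatment moved the antigen-presenting chains, Cd74 or Ciita past the threshold. In trametinib against untreated tumours (16 models, 48 against 54 tumours, with the model as a factor in the edgeR fit), log2 fold changes of the 9 members ran from -0.35 to 0.14 with a median of -0.02, beside a median of -0.01 over all genes. H2-DMa, the alpha chain of the peptide exchanger DM, was the 1 member called lower and none was called higher, where 19.5% of all genes were called lower and 17.3% higher. The median of the model means of H2-DMa was 19.2 CPM with trametinib and 31.8 CPM without. The edgeR fit with the model as a factor gave -0.35 ± 0.12 on the log2 scale (SE, adjusted p = 0.0114). The median of the differences per model was -0.47, and H2-DMa lay lower in 11 of 16 models. Without E0771 its adjusted p was 0.0549, without replicate 2 of each group 0.0602, without replicate 3 0.227, and with 1 difference per model 0.189. Ciita was at -0.31 ± 0.15 on the same scale, short of the threshold (SE; adjusted p = 0.0987), and lay lower in 9 of 16 models. It was called lower when only untreated tumours with library numbers close to the treated ones were used (-0.48, adjusted p = 0.0237) and without MMTV-Neu (-0.40, adjusted p = 0.0224); both settings were chosen after seeing the data. Without replicate 3 Ciita was at -0.11 (adjusted p = 0.683).

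Beside this, called members of the fixed pathway and marker lists moved in both directions. Among 8 tested antigen-processing genes 3 were higher, including the cathepsins Ctsd (0.57) and Ctsb (0.23), and 2 of 7 transcription factors of class II promoters were lower, Nfya (-0.14) and Nfyb (-0.13). The macrophage receptor gene Csf1r (-0.40), the dendritic cell integrin Itgax (-0.37) and Irf8 (-0.48), a factor of the myeloid lineage, were lower, while Cd4 was higher (0.83), all as log2 fold changes; of the lists, 3 of 10 macrophage and 3 of 10 dendritic cell markers were lower and 3 of 5 T cell markers higher. Their part in the H2-DMa difference was not tested.

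Erlotinib against untreated tumours (48 against 54, the same 16 models and the same controls) gave no called member. The count at an unadjusted p under 0.05 was also 0, and DESeq2 called none. Calls over all genes were 2.37% higher and 3.35% lower. The 9 log2 fold changes ran from -0.20 (Ciita, ± 0.15 SE) to 0.13, and the smallest adjusted p was 0.459. Among pathway genes Ctsd (0.40) and Ctsl (0.36), which degrades the invariant chain in some cells, were higher.

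Trametinib against erlotinib, the comparison with the most models (22; 65 against 66 tumours), called H2-DMa lower again, with no member higher, beside 12.5% of all genes called lower and 12.8% higher. Its log2 fold change was -0.41 ± 0.10 (SE; adjusted p = 0.00104), lower in 18 of 22 models, with medians of model means of 15.4 CPM under trametinib and 26.4 CPM under erlotinib. The trametinib tumours are those of the comparison with untreated tumours together with 6 further models. Without replicate 2 of each group the adjusted p was 0.104, and it was 0.152 when each model gave 1 difference. Macrophage markers lay lower here too, with 5 of 10 called, including Mrc1 (-0.96 ± 0.12 SE), as did Itgax (-0.66) and Irf8 (-0.59) and 4 of 8 antigen-processing genes; their part was not tested.

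Carboplatin plus paclitaxel against untreated tumours (48 against 54, 16 models) called no member in either direction (14.2% of all genes were called higher, 10.0% lower), with 1 member at an unadjusted p under 0.05 and none called by DESeq2. Log2 fold changes ran from -0.09 to 0.45 with a median of 0.21, beside 0.01 over all genes; the smallest adjusted p, 0.0936, was that of H2-Oa (0.45 ± 0.20 SE), and Ciita was at -0.04 ± 0.23 (SE). Of 8 antigen-processing genes 5 were higher (Ctsd 0.57, Ctsl 0.44), of 8 interferon gamma genes 4 were higher (among them Irf8, 0.48), and of 7 class II transcription factors 4 were lower (Creb1 -0.42, Nfya -0.19). In the same tumours 6 of 10 macrophage markers, 3 of 5 T cell markers and 3 of 4 tested B cell markers were higher.

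The antibodies against PD1 and CTLA4, compared with untreated tumours in 12 models (36 against 41 tumours), also called no member (6.0% of all genes higher, 4.81% lower), with 1 at an unadjusted p under 0.05 and none called by DESeq2. Log2 fold changes ran from -0.04 to 0.53 with a median of 0.27 and a smallest adjusted p of 0.106 (edgeR). Ciita had 0.27 ± 0.19 (SE), higher in 8 of 12 models, as was H2-Aa. H2-Ab1 and H2-Eb1 were higher in 7 of 12, Cd74 and H2-DMa in 6, H2-DMb1 in 5, H2-Ob in 4 and H2-Oa in 3. For H2-Aa the largest log2 difference of a model was 2.86, in T12, beside a median of 0.06 over models. Ctsd and Ctsl (0.22 each) and 2 of 5 T cell markers were higher. Against carboplatin plus paclitaxel (16 models, 48 tumours each) the antibody tumours had less H2-Oa, the alpha chain of DO: -0.69 ± 0.21 (SE; adjusted p = 0.0163), lower in 12 of 16 models, the 1 member called among 9.78% of all genes called lower and 8.28% higher. Leaving out replicate 1, 2 or 3 of every group gave adjusted p of 0.256, 0.0837 and 0.116. In that comparison 3 of 7 tested B cell markers, 5 of 10 macrophage markers, 3 of 10 dendritic cell markers and Ptprc (-0.53) were lower; their part in it was not tested.

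**Figure D3:**
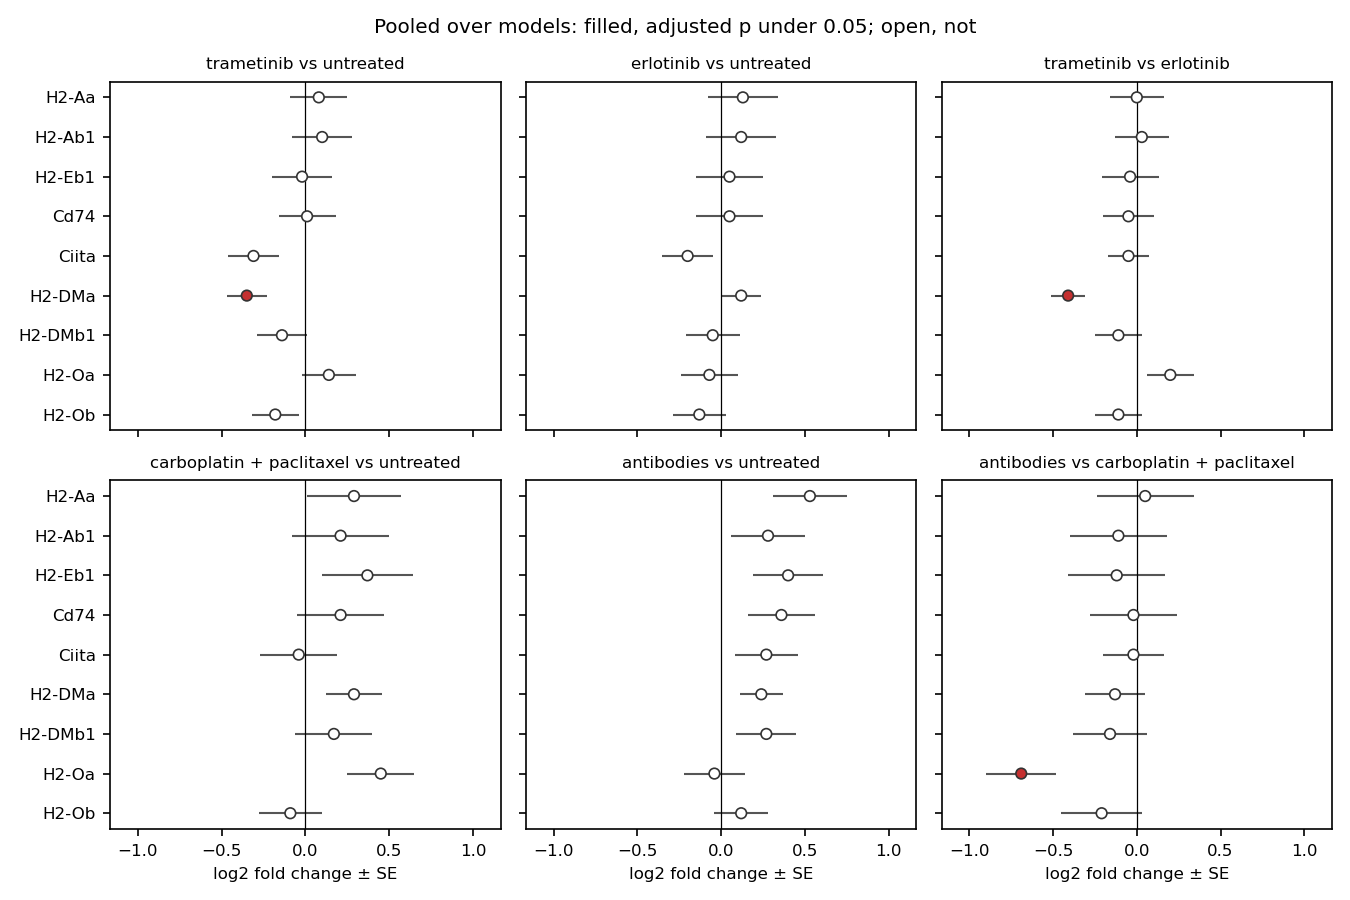
Log2 fold changes of the 9 members pooled over models, with standard errors, in 6 comparisons; filled points passed an adjusted p of 0.05. The filled points are H2-DMa in trametinib against untreated and against erlotinib, and H2-Oa in antibodies against carboplatin plus paclitaxel, and the other members lie within about 0.5 of 0.

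Ciita and H2-Aa did not keep step exactly. The change of Ciita lay below that of H2-Aa in 14 of 16 models under trametinib, in 13 of 16 under carboplatin plus paclitaxel, in 10 of 16 under erlotinib and in 7 of 12 under the antibodies. The median differences were alike, 0.20, 0.28, 0.18 and 0.23 on the log2 scale in that order; these comparisons share untreated tumours, and the difference was not tested. T11 shows it tumour by tumour. Ciita counts were 4.89% to 9.63% of H2-Aa counts in its 4 untreated tumours and 2.0% to 2.59% in its 3 trametinib tumours.

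The responses differed between models, which the pooled values average away. An F-test of the model by treatment terms called 8 of 9 members under trametinib (79.0% of all genes were called; Ciita had an adjusted p of 0.0540), 9 of 9 under erlotinib (73.8%), 9 of 9 in trametinib against erlotinib (68.5%) and 9 of 9 under carboplatin plus paclitaxel (65.7%). Under the antibodies 1 of 9 was called, H2-DMa (50.1% of all genes). With shares of 50.1% to 79.0% over all genes, a response differing between models was not particular to these genes. The changes within single models were therefore tested in 1 fit over all 309 tumours, adjusted over all genes and models of a comparison. Of the 60 called pairs of member and model, 26 of 50 kept their call without replicate 1 of each group, 18 of 60 without replicate 2 and 36 of 60 without replicate 3. Calls over all genes fell as well. Under carboplatin plus paclitaxel they went from 40461 pairs of gene and model to 24094, 20554 and 19790 without replicates 1, 2 and 3. Under trametinib against untreated they went from 36394 to 20229, 13516 and 20670.

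**Figure D4:**
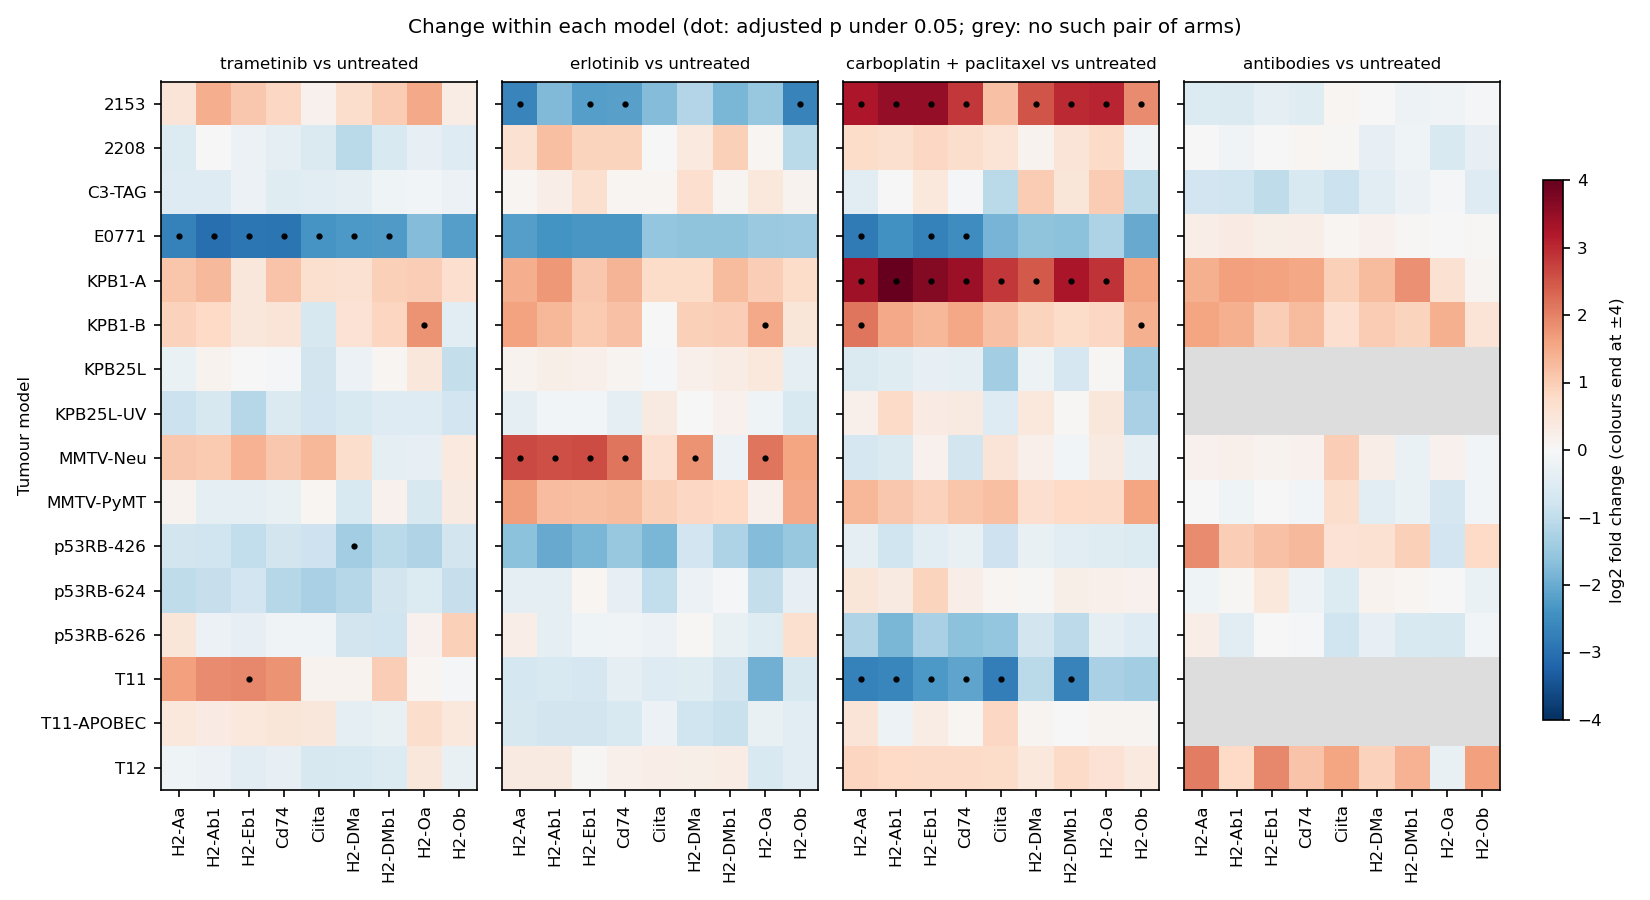
Log2 fold changes of the 9 members within each of 16 models for 4 treatments against untreated tumours; red is higher, blue lower, dots mark an adjusted p under 0.05, and grey marks models without that arm. Within a model the 9 members mostly share 1 colour, while the colour changes from model to model.

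Carboplatin plus paclitaxel gave the most calls: 18 of 144 pairs of member and model were higher (5.73% of all pairs of gene and model) and 9 lower (3.88%), with 11 of 16 models holding none. In 2153, 8 members were higher. H2-Aa was at 78.0, 41.0 and 200 CPM in the untreated tumours and at 48.8, 817 and 2134 CPM after treatment, so 2 treated tumours lay far above the controls and 1 within them. The log2 fold change was 3.24 ± 0.75 (SE; adjusted p = 9.43e-04), and those of the other 7 ran down to 1.89 for H2-Ob. Ciita, at 11.9, 6.18 and 19.5 CPM untreated and 13.5, 24.9 and 46.1 CPM treated, was not called, and its counts were 27.6%, 3.05% and 2.16% of those of H2-Aa in the treated tumours. Of the markers there, 5 of 10 macrophage, 5 of 10 dendritic cell and 4 of 5 T cell genes were higher, the macrophage sum reaching 4302 CPM against at most 755 CPM untreated; their part was not tested.

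In KPB1-A the 8 calls rested on 1 tumour. H2-Aa was at 32.8, 27.5 and 64.6 CPM untreated and at 1250, 27.7 and 37.7 CPM treated, and Ciita at 1.31, 0.994 and 1.58 CPM against 24.9, 1.12 and 1.51 CPM. Without replicate 1 of every group, which removes that tumour, the log2 fold change of H2-Aa went from 3.40 to -0.50 (adjusted p = 0.887), and those of Cd74, H2-Ab1, H2-DMa and H2-Eb1 also became negative. That arm's T cell markers summed to 4.94 to 74.6 CPM against at most 5.93 CPM untreated. Its skeletal muscle markers summed to 547 to 9199 CPM against at most 116 CPM. Its dendritic cell sum, which Fscn1 can dominate, was 186 to 862 CPM against at most 400 CPM. Of the macrophage markers, 9 of 10 were higher. The part of these markers was not tested.

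T11 went the other way, with 6 members lower. Ciita was at 13.2, 6.17, 19.8 and 13.6 CPM in untreated tumours and at 1.29, 1.39 and 3.14 CPM after carboplatin plus paclitaxel, without overlap (log2 fold change -2.76 ± 0.62 SE, adjusted p = 6.37e-04). H2-DMb1 did not overlap either (-2.68 ± 0.63 SE, adjusted p = 0.00107), whereas H2-Aa touched, at 64.1 to 404 CPM against 12.5 to 65.0 CPM (-2.70 ± 0.71 SE, adjusted p = 0.00459). The mean library numbers of both arms lay 2072 apart, farther than in any other model of this comparison. Treatment and library number, whose meaning the labels do not give, therefore cannot be told apart. Of the markers, 4 of 10 dendritic cell genes were lower and 1 higher, and 1 of 10 macrophage genes was lower. Ptprc was at 41.1 to 49.9 against 52.4 to 87.2 CPM untreated, without overlap. The macrophage sum did not overlap either, at 1585 to 1986 against 2027 to 3305 CPM. The part of these markers was not tested. In KPB1-B, H2-Aa (2.14 ± 0.57 SE, adjusted p = 0.00553) and H2-Ob (1.42 ± 0.49 SE, adjusted p = 0.0481) were higher, with library numbers 814 apart. H2-Aa was at 271, 33.0 and 193 CPM in the treated tumours, and Ptprc at 43.2, 15.2 and 44.1 CPM, so the tumour within the untreated range of H2-Aa (8.28 to 69.7 CPM) also had the least Ptprc of the 3. T cell markers summed to 12.2 to 17.1 against 2.70 to 9.97 CPM untreated and B cell markers to 6.58 to 14.6 against 1.87 to 4.85 CPM, both without overlap; their part was not tested. In MMTV-PyMT the treated tumours had H2-Aa at 238, 189 and 270 CPM against 42.0, 100 and 137 CPM, a separation that was not called. Ptprc separated as well, at 28.0 to 38.4 against 5.28 to 8.83 CPM, as did the macrophage sum, at 956 to 1044 against 379 to 584 CPM, and the T cell sum, at 8.46 to 16.1 against 3.41 to 4.26 CPM; their part was not tested.

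E0771 had 1 untreated tumour, so its values are given as a description; the calls under trametinib (7 members lower) and under carboplatin plus paclitaxel (3 lower) assume that this tumour varies like the other groups. H2-Aa was at 985 CPM in that tumour, at 212, 129 and 114 CPM under trametinib, at 199, 184 and 254 CPM under erlotinib and at 88.7, 135 and 192 CPM under carboplatin plus paclitaxel. All 9 tumours lay below the untreated one, and the antibody tumours, at 501, 752 and 2341 CPM, lay around it. Ciita followed, from 37.9 CPM to 8.0, 7.76 and 6.51 CPM under trametinib. The untreated tumour also had more Ptprc, 209 CPM against 60.4 to 73.4 CPM under trametinib, and a macrophage sum of 3336 CPM against 732 to 1056 CPM; that part was not tested. Under carboplatin plus paclitaxel Ptprc was at 35.6 to 70.3 CPM.

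**Figure D5:**
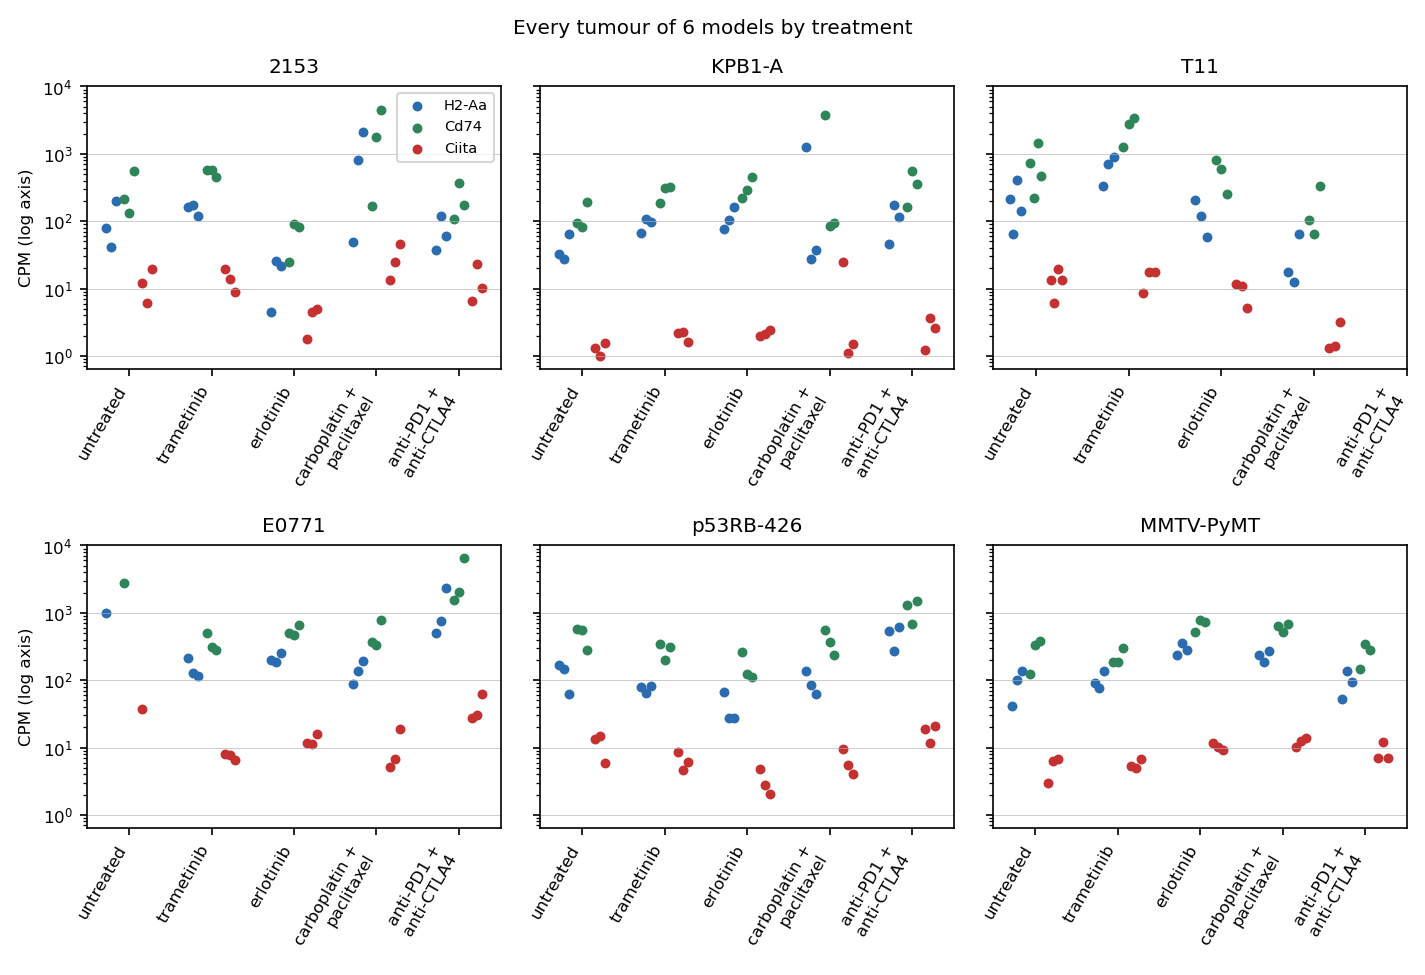
H2-Aa, Cd74 and Ciita in every tumour of 6 models, chosen after their values were seen, by treatment (CPM, log axis); T11 has no antibody arm here. The single high KPB1-A tumour, the low T11 tumours after carboplatin plus paclitaxel and the single untreated E0771 tumour are visible.

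Trametinib against untreated gave 2 pairs higher (3.90% of all pairs) and 8 lower (4.75%) of 144, 7 of the lower ones in E0771 against its single untreated tumour. The last was H2-DMa in p53RB-426, at 40.9, 36.1 and 20.2 CPM untreated and 15.0, 9.92 and 12.5 CPM treated, without overlap (-1.38 ± 0.46 SE, adjusted p = 0.0396), where macrophage markers also summed to 1020 to 1235 against 1613 to 2087 CPM. The higher pairs were H2-Oa in KPB1-B (1.81 ± 0.48 SE, adjusted p = 0.00573) and H2-Eb1 in T11 (1.91 ± 0.65 SE, adjusted p = 0.0428). The mean library numbers of the arms lay 810 apart in KPB1-B and 356 apart in T11. In T11 the H2-Aa values were 330, 713 and 891 CPM under trametinib against 211, 64.1, 404 and 144 CPM untreated, overlapping and not called, and Ciita was at 8.53, 17.6 and 17.8 CPM against 6.17 to 19.8 CPM. T cell markers summed to 22.4 to 33.0 CPM there against 2.80 to 11.3 CPM, and their part was not tested. In p53RB-624, H2-Aa was at 40.7, 39.1 and 32.5 CPM under trametinib against 61.6, 58.8 and 106 CPM untreated, apart without being called. Mean library numbers lay 6 apart. Ptprc there was at 32.7 to 58.2 against 75.3 to 86.5 CPM and the macrophage sum at 1438 to 1482 against 1930 to 2042 CPM. The part of these markers was not tested.

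Erlotinib against untreated gave 7 pairs higher (3.10%) and 4 lower (2.97%) of 144. The 4 lower ones were all in 2153. There H2-Aa was at 4.43, 25.3 and 21.6 CPM under erlotinib, below each of the untreated tumours at 41.0 to 200 CPM (-2.63 ± 0.74 SE, adjusted p = 0.0115), and Cd74, H2-Eb1 and H2-Ob were lower as well; 3 of 10 dendritic cell markers were lower, and library numbers lay 459 apart. In MMTV-Neu 6 members were higher, H2-Aa at 81.2, 861 and 293 CPM against 92.7, 65.2 and 39.3 CPM (2.65 ± 0.73 SE, adjusted p = 0.0101). These 3 tumours had Ptprc at 52.5 to 325 CPM against at most 15.2 CPM untreated and skeletal muscle sums of up to 11862 CPM. All 10 dendritic cell markers were called higher. B cell sums were 17.0 to 114 against at most 4.59 CPM, and T cell sums 23.7 to 100 against at most 8.16 CPM. Macrophage sums were 1238 to 6914 against at most 607 CPM. The part of these markers was not tested. Mean library numbers of these arms lay 224 apart. H2-Oa in KPB1-B was the remaining higher pair (1.5 ± 0.49 SE, adjusted p = 0.0418), with mean library numbers 808 apart. KPB1-A tumours under erlotinib, at 75.5, 105 and 162 CPM of H2-Aa against 27.5 to 64.6 CPM untreated, were apart without being called. Their mean library numbers lay 6 apart. Ptprc there was at 13.3 to 18.9 against 8.31 to 9.87 CPM and the macrophage sum at 416 to 591 against 309 to 388 CPM. The part of these markers was not tested. MMTV-PyMT tumours under erlotinib, at 240, 358 and 285 CPM of H2-Aa, lay above all 3 untreated ones without being called, with library numbers 219 apart. The macrophage sum, at 834 to 1120 CPM, the T cell sum, at 9.94 to 14.3 CPM, and Ptprc, at 29.0 to 41.7 CPM, lay above the untreated tumours too, and their part was not tested.

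Within models, trametinib against erlotinib gave 11 pairs higher (1.66%) and 1 lower (1.87%) of 198, and 8 of the 11 were in 2153. Its H2-Aa values were 162, 174 and 119 CPM under trametinib against 4.43, 25.3 and 21.6 CPM under erlotinib, without overlap (3.15 ± 0.75 SE, adjusted p = 0.00322), with library numbers 3 apart. Ciita, at 19.3, 13.8 and 8.76 CPM against 1.77, 4.44 and 4.94 CPM, was the member not called. Of the markers, 9 of 10 macrophage, 6 of 10 dendritic cell and 5 of 5 T cell genes were higher there too, the T cell sum at 14.7 to 17.3 against 0.935 to 1.81 CPM, and their part was not tested. The other 3 were H2-Aa, H2-Ab1 and H2-Eb1 in T11, H2-Aa at 330 to 891 CPM against 204, 120 and 59.0 CPM (2.34 ± 0.72 SE, adjusted p = 0.0427); macrophage sums overlapped there (2333 to 3540 against 2039 to 3027 CPM) and T cell sums did not (22.4 to 33.0 against 2.63 to 4.29 CPM). The lower pair was H2-Oa in MMTV-Neu (-2.47 ± 0.64 SE, adjusted p = 0.00886). B cell markers there summed to 2.61 to 9.87 CPM under trametinib against 17.0 to 114 CPM under erlotinib. Ptprc was at 21.4 to 46.2 against 52.5 to 325 CPM, and the part of these markers was not tested.

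The antibodies gave no called pair among 108 (1.63% of all pairs higher, 1.28% lower), with 18 at an unadjusted p under 0.05. Arms were apart without being called in p53RB-426, where H2-Aa was at 529, 267 and 609 CPM against 166, 149 and 61.9 CPM untreated, and in T12, at 258, 422 and 247 CPM against 16.5, 23.2 and 183 CPM. In both models the library numbers of the arms lay far apart, by 871 and 756, and the balance of the A chains moved with them. H2-Ab1 counts were 1.52 to 1.75 times those of H2-Aa in untreated p53RB-426 tumours and 0.83 to 0.90 times under the antibodies, with 1.12 to 2.16 in the 9 tumours of the other arms. In T12 the ratio was 2.12 to 2.70 in the 12 tumours without antibodies and 0.957 to 1.02 in the 3 with them. The ratio also differed among untreated tumours of a single model. In p53RB-626 it was 1.55 to 1.61 in the 3 untreated tumours with the lower library numbers and 0.783 to 0.944 in the 3 with the higher ones. In KPB1-B it was 1.29 to 1.63 and 0.836 to 0.950 in the same way. Untreated T11 went the other way, with 0.867 at the lowest library number and 1.25 to 1.41 at the higher ones. Untreated C3-TAG hardly moved, with 0.907 at the lowest number and 0.912 to 0.983 at the higher ones. K14-TRT ran from 0.658 to 1.04 without a single direction. In T12 and p53RB-426, treatment and library number cannot be told apart. Ptprc was at 151 to 155 CPM with the antibodies in T12 against 45.9 to 73.5 CPM untreated, and epithelial markers summed to 865 to 1293 against 194 to 660 CPM. In p53RB-426 Ptprc overlapped, at 58.0 to 69.8 against 47.4 to 59.7 CPM. The dendritic cell sum, which Fscn1 can dominate, was lower there, at 435 to 493 against at least 526 CPM. The part of these markers was not tested.

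Median survival, which the labels give per model and treatment, was set against untreated class II levels over the 12 models with antibody and untreated arms. The log2 ratio of survival had r = 0.47 with mean log2 CPM of Ciita (permutation p = 0.130, adjusted over 2 relations 0.130; Spearman rho 0.26, p = 0.420, adjusted 0.674) and r = 0.63 with Cd74 (permutation p = 0.0517, adjusted 0.103; rho 0.14, p = 0.674), two-sided. E0771 decided both: it had the highest levels and 70 days with antibodies against 25 days untreated. Without E0771 and KPB1-A, the models farthest from the median level, r for Ciita was -0.03, without E0771 and KPB1-B r for Cd74 was 0.01, and without E0771 alone r was -0.03 and -0.07, so the relation rests on E0771.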

How the data were processed

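Labels gave each tumour its model and treatment. Per the labels' protocols, RNA came from cryopreserved tumours and libraries from a TruSeq mRNA kit. Per the submitters' processing notes, STAR, SAMtools, Picard and Salmon were used on mm10; no version, setting or strandedness is stated there. The deposited table holds the authors' estimated counts from Salmon, not scaled between libraries; 8.35% of the values were not whole and all were rounded. A further table deposited by the authors holds their normalized signal, each count divided by the 75th percentile of its library's values above 0 and multiplied by 1000 (largest relative deviation 6.76e-14).

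Genes were filtered with filterByExpr (minimum count 10), or for single models by at least 3 tumours over 10 counts in the median library, scaled by TMM and tested with edgeR 4.0.16 (limma 3.58.1, R 4.3.3) by quasi-likelihood F-tests, adjusted after Benjamini and Hochberg over all genes, or over all genes and models; the dispersion trend was estimated from every 10th gene in order of abundance. The code of the pooled trametinib fit was run on simulated counts without differences between models. The tests within single models were not simulated. Log2 values use a prior count of 2. DESeq2 1.42.0, its size factors, no filter, the authors' signal (limma, pseudocount 1), other designs and left-out replicates were alternatives. Pooled tests treat tumours of a model as independent; p-values measure the spread between tumours, which the labels do not tie to separate animals. Library numbers are running numbers in the titles whose meaning the labels do not give. In the carboplatin plus paclitaxel arm, 3 KPB25L-UV tumours carry KPB25L library names and were kept by title.

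The text names all 9 members, the genes most like them by a fixed ranking (10 for the chains, 5 for Ciita, predicted genes left out), and up to 2 called genes of smallest p from lists of pathway genes and cell type markers, of which 78 of 81 symbols were found. The members and lists were chosen with earlier results of these data known.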

Additional observations from a re-analysis of the deposited data

Results flagged for a closer look

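In untreated T11, replicate 1 had 2.40 CPM of H2-Ob, against 0.707 to 0.807 CPM in the other 3 tumours. It was the 1 sample far from its group among 45 combinations of member and group tested for this, where chance alone gives about 5%. The response differed between models, by the F-test of the model by treatment terms, for 8 of 9 members in trametinib against untreated tumours (79.0% of all genes), for 9 of 9 under erlotinib (73.8%), for 9 of 9 in trametinib against erlotinib (68.5%), for 9 of 9 under carboplatin plus paclitaxel (65.7%) and for 1 of 9 under the antibodies (50.1%). The share of all genes was at least 50.1% in each comparison.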

How the results depend on the processing

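All 9 members kept their call between untreated models under every alternative run for it. Of the 60 called pairs of member and model, 57 kept call and direction with DESeq2 size factors, 47 without a filter and 41 with the authors' signal; leaving out replicates 1, 2 and 3 of every group kept 26 of 50, 18 and 36, and 5 reversed without replicate 1, all in KPB1-A with carboplatin plus paclitaxel (ranges over the replicates left out: Cd74 -0.62 to 4.33, H2-Aa -0.50 to 4.28, H2-Ab1 -0.86 to 5.11, H2-DMa -0.57 to 3.08, H2-Eb1 -0.94 to 4.46).

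Pooled members lower under trametinib numbered 0 without a model term, with 1 difference per model and without E0771, 3 (Ciita, H2-DMa, H2-Ob) with only tumours of neighbouring library numbers in both arms, 2 with such controls and 2 without MMTV-Neu, and 0 to 1 with a replicate left out; against erlotinib 0 without a model term and per model, and 0 to 1 with a replicate left out. For antibodies against carboplatin plus paclitaxel the count was 0 without a model term, per model, with neighbouring tumours or controls, and with any replicate left out. With a replicate left out, Ciita ranged from -0.31 to 0.06 (erlotinib), from -0.16 to 0.05 (trametinib against erlotinib), from -0.25 to 0.08 (carboplatin plus paclitaxel) and from -0.19 to 0.27 (antibodies against carboplatin plus paclitaxel). Its sign changed at 0.06 (erlotinib without replicate 3), 0.05 and 0.03 (trametinib against erlotinib without replicate 2 and without a model term), at 0.08, 0.17, 0.29, 0.18, 0.05 and 0.00 (carboplatin plus paclitaxel without replicate 2, without a model term, with neighbouring tumours, with neighbouring controls, without E0771 and without KPB25L-UV) and at 0.09, 0.27, 0.01, 0.08 and 0.13 (antibodies against carboplatin plus paclitaxel with the authors' signal, without replicate 1, without replicate 3, without a model term and per model). No value of any member that changed sign was called.

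Members whose response differed by model numbered, with a replicate left out, 1 to 8 (trametinib), 3 to 9 (erlotinib), 2 to 9 (trametinib against erlotinib), 5 to 9 (carboplatin plus paclitaxel) and 0 to 3 (antibodies; 0 without a filter). Pairs higher and lower with a replicate left out ranged from 0 to 2 and 0 to 1 (trametinib), 0 to 7 and 0 to 2 (erlotinib), 0 to 7 and 0 to 2 (trametinib against erlotinib), 8 to 21 and 2 to 10 (carboplatin plus paclitaxel) and 0 to 5 higher (antibodies). With the authors' signal they were 4 and 5 (trametinib), 2 and 8 (erlotinib), 14 and 2 (trametinib against erlotinib), 10 and 7 (carboplatin plus paclitaxel) and 4 and 0 (antibodies); without a filter 1 higher (trametinib) and 1 lower (erlotinib). Without E0771 the correlations with survival became -0.03 (Ciita, adjusted p = 0.928) and -0.07 (Cd74, adjusted p = 0.928). The cause of these changes was not tested. Leaving out replicates also lowers the number of tumours. Settings with neighbouring controls and without MMTV-Neu were chosen after seeing the data. No paired analysis was possible because replicate numbers follow accession order and pair no tumours. The low counts of H2-Oa and H2-Ob limit both.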

Other observations

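The ratio of H2-Ab1 to H2-Aa counts also varied between arms in models without untreated tumours here. In 2336, where H2-Aa was at 8.93 to 26.3 CPM under trametinib or erlotinib and 165 to 323 CPM after carboplatin plus paclitaxel, it was 3.64, 6.47 and 5.39 under trametinib, 1.66, 3.23 and 2.68 under erlotinib and 0.933, 0.920 and 0.892 after carboplatin plus paclitaxel. In 9263 a single trametinib tumour, at 3.91 CPM of H2-Aa, had 5.77 beside 1.62 and 1.44 in the other two. In 2224 the ratio was 1.59 to 2.39 under trametinib or erlotinib and 0.880 to 0.989 in the other arms. The library numbers of these arms differed as well, and their part was not tested.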
